A study of Mus musculus with 12 samples.

Results

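The tumour necrosis factor (TNF) superfamily was followed in whole bone marrow of mice after a flame burn. The family was taken as every row of the gene table whose symbol is Tnf or starts with Tnfsf or Tnfrsf and a digit. This rule found 32 of 24415 genes, 12 ligands and 20 receptors, and used no measured value. Family members that carry other symbols, such as Fas, Cd40 and the lymphotoxins, lie outside the rule and are given as a separate list.

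The donors of the marrow were female C57BL/6J mice, 8 weeks old, and cells were taken on day 7 after injury. Each of 3 groups had 4 libraries. The sham group, libraries 1 to 4, had no burn and received an isotype control antibody. The burn group, libraries 5 to 8, had a flame burn and the same isotype antibody, and the burn group with anti-G-CSF, libraries 9 to 12, had the burn and an antibody against granulocyte colony-stimulating factor (G-CSF), the growth factor that drives neutrophil production. All mice therefore received an antibody, with a first dose 12 h ahead of the injury, another at the injury and 1 on each following day until harvest. Sham mice given anti-G-CSF were not analysed here, so the effect of the antibody without a burn was not measured. The labels do not say that each library was a separate mouse, so the p-values rest on variation among libraries that may be technical in part or whole.

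TNF superfamily ligands are mostly membrane proteins that act as trimers and can be cut from the cell surface. Some of their receptors carry a death domain and can start apoptosis or necroptosis, and many recruit TRAF adaptors and switch on NF-kB and MAP kinases. In bone marrow the family is known for TNF made by monocytes and other myeloid cells, for BAFF and APRIL, which keep B cells and plasma cells alive, and for RANKL, which drives osteoclast formation.

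Libraries held 18780399 to 25708084 counts. Of the 32 family members 28 passed the filter on low counts, and 4 did not (Tnfrsf11b, Tnfrsf17, Tnfsf4 and Tnfsf18). Levels are in CPM, a gene's counts relative to its library's total after TMM scaling, and changes are log2 fold changes with their SE from edgeR's quasi-likelihood test. A gene was called where its p, adjusted by Benjamini-Hochberg over all 15283 genes tested, was under 0.05. Every marker of the neutrophil, monocyte, B lineage, erythroid and stromal lists was detected in these whole-marrow libraries. Levels of all but the stromal list moved with the groups. Mean summed CPM of the stromal list was 217 in sham, 189 in burn and 216 with anti-G-CSF, with overlap. Of its 9 tested genes, 1 was called lower after burn and 2 higher with anti-G-CSF than in burn. Summed CPM of 12 neutrophil markers was 48320 ± 5781 in sham, 90071 ± 8410 in burn and 31747 ± 3543 with anti-G-CSF (SD, n = 4 here and throughout), and all 12 were called higher, lower and lower again in the 3 comparisons. Transcripts of brain, heart and lens were also present. The 16 brain markers summed to 827 to 932 CPM in sham, 777 to 1319 in burn and 1159 to 2117 with anti-G-CSF, highest in libraries 12 and 9, and 13 of 16 were called higher with anti-G-CSF than in burn. Heart markers were called higher in 8 of 8 and lens markers in 4 of 8 in that comparison. Their part in the results below was not tested. For the named family members, values without libraries 9 and 12 or with a brain score in the model are given where a call ends. For genes of the other lists and for markers such values were not recorded gene by gene. Whether each of their calls holds in those fits is therefore mostly not given. Against sham, the fit without libraries 9 and 12 called 17 genes of the whole table lower, and that with the brain score 2. With the score, most of the 12 neutrophil marker calls against sham therefore ended. In whole marrow, fewer cells of a type and less RNA per cell cannot be told apart.

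The share of the family that was called was not far from that of all genes after burn and with anti-G-CSF. After burn 8 of the 28 tested members were called (28.6%), against 21.0% of all genes tested. Of these 6 were higher and 2 lower, where 11.1% and 9.92% of all genes were. The median log2 fold change of the members was 0.08, and that of all genes was -2.59e-04. With anti-G-CSF, 12 members differed from burn (42.9%, against 34.6% of all genes), 3 higher and 9 lower, where 17.7% and 16.9% of all genes were, with a median of -0.19 against 0.08 over all genes. Against sham, burned marrow with anti-G-CSF had 4 members called lower (14.3%, against 3.91% of all genes) and 0 higher (against 7.09%), while 1681 of 15283 genes were called in either direction, with medians of -0.22 and 0.00 (-0.0046). The burn group enters the first pair of these comparisons, the sham group the first and last, and the anti-G-CSF group the last pair, so the comparisons share libraries. Scaling moved the balance of calls. Scaled by total counts alone, which puts the median log2 fold change of all genes at -0.10 after burn and 0.26 with anti-G-CSF, 5 members were called higher and 4 lower after burn, and 6 higher and 7 lower with anti-G-CSF. With upper quartile factors these were 5 and 3, and 5 and 7. Without library 6 the number called lower after burn was 5. The forest plot of log2 fold changes gives each tested member.

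**Figure D1:**
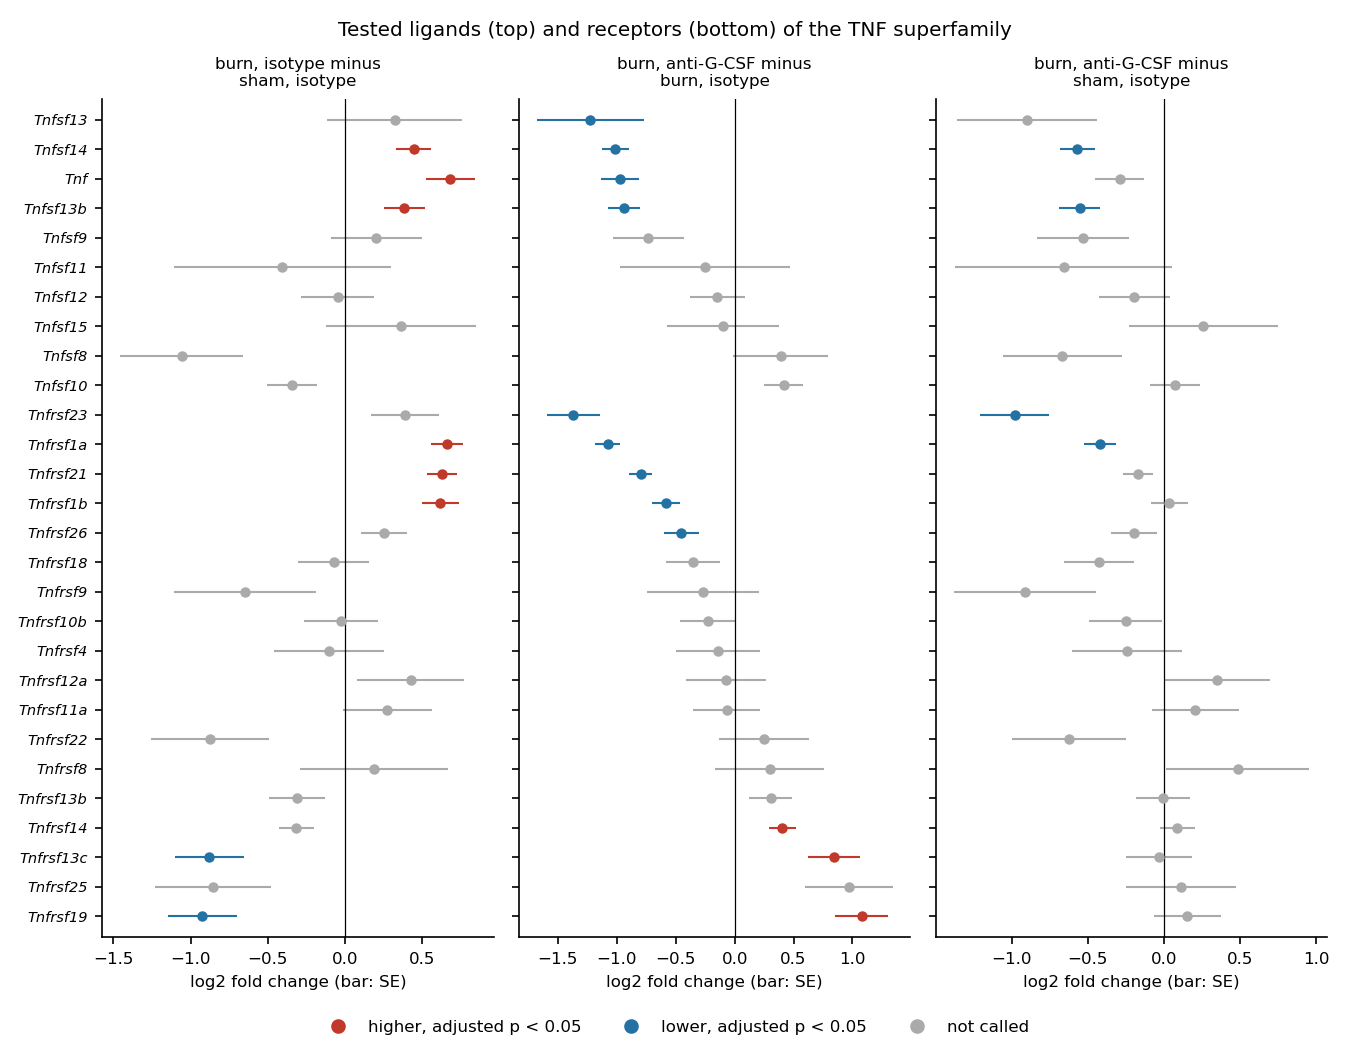
Log2 fold change (x axis, bars 1 SE) of the 28 tested TNF superfamily members (rows) in 3 comparisons (panels), coloured by whether the adjusted p was under 0.05. The 6 members called higher after burn lie between 0.38 and 0.68 in the first panel, and the 9 called lower with anti-G-CSF lie between -0.45 and -1.37 in the middle panel.

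Per kb of exon, the most abundant members in sham marrow were receptors. Tnfrsf1a stood at 51.9 ± 5.17 CPM per kb, Tnfrsf1b at 34.2 ± 2.16 and Tnfrsf14 at 33.7 ± 4.78. Tnfrsf21 followed at 21.2 ± 1.69 and Tnfrsf13c at 20.4 ± 2.43. Tnfrsf1b and Tnfrsf14, and likewise Tnfrsf21 and Tnfrsf13c, differed by less than their spread. The most abundant ligand was Tnfsf14 at 16.4 ± 1.54 CPM per kb, ahead of Tnf at 4.77 ± 0.256 and Tnfsf13b at 3.77 ± 0.478. Tnfrsf18 at 4.71 ± 0.263 and Tnfrsf19 at 4.32 ± 0.124 CPM per kb lay next to Tnf. The other 22 members were below Tnfsf13b, and the lowest was Tnfrsf11b, with 1 count in the 4 sham libraries together.

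The 6 members that rose after burn were Tnf, Tnfsf14, Tnfsf13b, Tnfrsf1a, Tnfrsf1b and Tnfrsf21. Their upstream windows, the 250 bases before the gene start in RefSeq's GRCm38.p6 table, are printed because these genes rose together. Of the pair of windows given for Tnfsf13b, the one that ends at the gene start is shown. The table held windows for 25 of the 32 members. Sequences run 5′ to 3′ on the gene's strand, and capitals mark any match on either strand to TTCNNNGAA (a STAT-type site), TGANTCA (an AP-1-type site), GAGGAAG (a PU.1-type site) or the NF-kB consensus, none of which overlapped another.
Tnf, chr17:35202008-35202257, minus strand: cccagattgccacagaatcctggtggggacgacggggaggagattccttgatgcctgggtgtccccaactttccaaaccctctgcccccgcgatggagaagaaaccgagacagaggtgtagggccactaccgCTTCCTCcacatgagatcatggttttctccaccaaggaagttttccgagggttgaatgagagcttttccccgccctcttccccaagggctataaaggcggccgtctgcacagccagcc
Tnfsf14, chr17:57194182-57194431, minus strand: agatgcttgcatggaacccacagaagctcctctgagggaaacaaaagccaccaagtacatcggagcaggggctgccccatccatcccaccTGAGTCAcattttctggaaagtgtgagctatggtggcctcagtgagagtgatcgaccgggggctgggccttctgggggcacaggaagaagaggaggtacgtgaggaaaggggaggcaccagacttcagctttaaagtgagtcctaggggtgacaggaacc
Tnfsf13b, chr8:10006383-10006632, plus strand: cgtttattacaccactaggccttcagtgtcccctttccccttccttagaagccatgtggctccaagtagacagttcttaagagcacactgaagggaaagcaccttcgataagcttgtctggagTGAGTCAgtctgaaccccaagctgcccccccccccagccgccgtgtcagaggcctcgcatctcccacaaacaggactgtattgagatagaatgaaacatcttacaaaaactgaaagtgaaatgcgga
Tnfrsf1a, chr6:125349473-125349722, plus strand: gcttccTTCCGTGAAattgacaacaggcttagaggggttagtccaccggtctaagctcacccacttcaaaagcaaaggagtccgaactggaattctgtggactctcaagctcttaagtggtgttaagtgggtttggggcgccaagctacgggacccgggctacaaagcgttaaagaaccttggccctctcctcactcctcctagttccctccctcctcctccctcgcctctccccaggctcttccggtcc
Tnfrsf1b, chr4:145246871-145247120, minus strand: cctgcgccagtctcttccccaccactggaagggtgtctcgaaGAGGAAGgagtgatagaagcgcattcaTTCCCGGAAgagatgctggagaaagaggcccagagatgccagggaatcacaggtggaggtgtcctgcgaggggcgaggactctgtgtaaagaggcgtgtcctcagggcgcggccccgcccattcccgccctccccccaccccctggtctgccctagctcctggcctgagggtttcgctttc
Tnfrsf21, chr17:43016305-43016554, plus strand: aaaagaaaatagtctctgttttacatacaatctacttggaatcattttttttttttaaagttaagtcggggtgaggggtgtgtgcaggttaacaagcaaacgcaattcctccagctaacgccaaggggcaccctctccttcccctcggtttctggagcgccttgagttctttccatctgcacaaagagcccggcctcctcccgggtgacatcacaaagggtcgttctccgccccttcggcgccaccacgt
The Tnf window held GAGGAAG on the reverse strand at -118 to -112, counted from the gene start. Tnfsf14 and Tnfsf13b each held 1 TGANTCA, at -160 to -154 and at -127 to -121. Both TNF receptors held 1 TTCNNNGAA, at -244 to -236 in Tnfrsf1a and at -181 to -173 in Tnfrsf1b, and Tnfrsf1b also held GAGGAAG at -208 to -202. Tnfrsf21 had no match to the 4 motifs in this window. Of all 32851 windows of this length, 7.02% held TTCNNNGAA, 6.75% TGANTCA, 10.6% GAGGAAG and 7.25% the NF-kB consensus. Among the 29 windows of members, 5, 5, 4 and 3 did. Members not called after burn also held TTCNNNGAA (Tnfrsf9, Tnfrsf18 and Tnfrsf25), TGANTCA (Tnfrsf8, Tnfrsf9 and Tnfsf13) and GAGGAAG (Tnfrsf25, and the untested Tnfsf18). Any part of these motifs in the rise was not tested.

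Tnf and both of its receptors rose after burn and were lower with anti-G-CSF. Tnf (chr17:35199367-35202007, minus strand, mm10), the founding inflammatory ligand, stood at 7.53, 8.43, 7.56 and 7.76 CPM in the sham libraries. In burn it stood at 14.1, 13.6, 12.5 and 9.97 CPM, and with anti-G-CSF at 6.49, 7.66, 6.13 and 5.30 CPM. Every burn library was above every other library. The rise after burn was 1.60-fold (log2 fold change 0.68 ± 0.16, adjusted p = 0.00426). With anti-G-CSF Tnf was 1.96-fold lower than in burn (log2 fold change -0.97 ± 0.16, adjusted p = 1.30e-04), and the difference from sham missed the threshold (log2 fold change -0.29 ± 0.16, adjusted p = 0.274).

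Tnfrsf1a (chr6:125349723-125362483, plus strand) encodes TNFR1, the death-domain receptor found on most cells. Its level was 147, 145, 126 and 120.3 CPM in sham, 232, 229.6, 184 and 205 in burn and 82.8, 102, 118 and 99.96 with anti-G-CSF. The 3 groups did not overlap. It rose 1.58-fold after burn (log2 fold change 0.66 ± 0.10, adjusted p = 2.37e-04) and was 2.11-fold lower with anti-G-CSF (log2 fold change -1.08 ± 0.11, adjusted p = 6.73e-07). Against sham it was 1.34-fold lower (log2 fold change -0.42 ± 0.10, adjusted p = 0.0218).

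Tnfrsf1b (chr4:145212368-145246870, minus strand) encodes TNFR2, the receptor without a death domain that is common on blood cells. It stood at 140.0, 135, 122 and 126 CPM in sham and 226, 215, 159 and 201 in burn, with no overlap. With anti-G-CSF it stood at 104, 135, 162 and 134 CPM, where library 11 lay above burn library 7. The change after burn was 1.53-fold (log2 fold change 0.62 ± 0.12, adjusted p = 0.00145). With anti-G-CSF it was 1.498-fold lower (log2 fold change -0.58 ± 0.12, adjusted p = 0.00138), a call that ended with a brain score in the model (log2 fold change -0.34, adjusted p = 0.0920). Against sham its change was close to 0 (log2 fold change 0.03 ± 0.12, adjusted p = 0.909).

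Tnfrsf21 (chr17:43016555-43089188, plus strand), death receptor 6, was also highest in burn. Its level was 91.8, 94.0, 79.4 and 83.2 CPM in sham, 157, 139.7, 112 and 129 in burn and 67.7, 76.1, 83.7 and 81.8 with anti-G-CSF. Burn libraries were all above the other 8. It rose 1.54-fold after burn (log2 fold change 0.63 ± 0.10, adjusted p = 2.04e-04) and was 1.74-fold lower with anti-G-CSF (log2 fold change -0.80 ± 0.10, adjusted p = 7.44e-06). Neutrophil markers were also highest in burn on the summed CPM, 1.86 times sham in burn and 0.352 times burn with anti-G-CSF, and their part in the levels of these 3 receptors was not tested.

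Monocyte markers moved alongside Tnf. Their summed CPM (9 genes) was 2842 ± 191 in sham, 4382 ± 726 in burn and 2744 ± 430 with anti-G-CSF, with 7 of 9 called higher after burn and 6 of 9 called lower with anti-G-CSF. As a share of that sum, Tnf made 0.276% ± 0.0185 in sham, 0.289% ± 0.0391 in burn and 0.237% ± 0.0514 with anti-G-CSF. The log2 difference of this share was 0.06 between burn and sham (2-sided exact permutation test, p = 0.657) and -0.30 between anti-G-CSF and burn (exact p = 0.171). Adjusted over the 9 exact permutation tests of this kind the values were 0.657 and 0.463, and 4 against 4 libraries cannot go below p = 0.0286. A p of this size does not show that the share stayed the same.

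**Figure D2:**
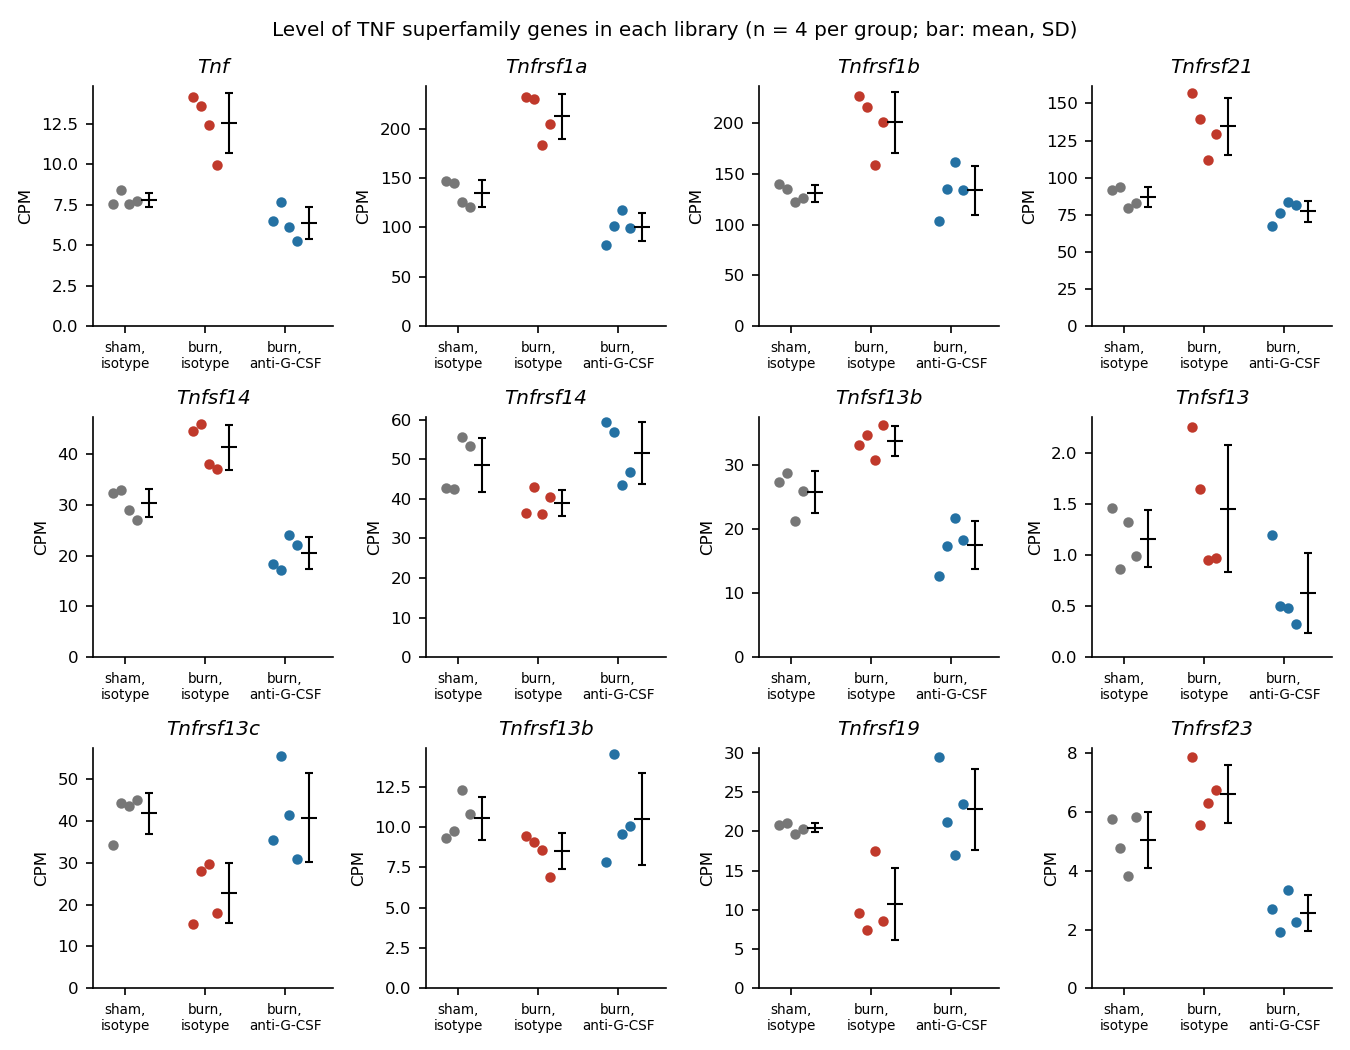
CPM (y axes, each from its own scale) of 12 TNF superfamily members in the 12 libraries (points), by group, with the mean and SD of 4 libraries as bars. Burn libraries of Tnf, Tnfrsf1a, Tnfrsf21 and Tnfsf14 all lie above the sham and anti-G-CSF libraries, and those of Tnfrsf13c all lie below them.

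The LIGHT ligand rose after burn, and with anti-G-CSF it was lower and its receptor HVEM higher than in burn. Tnfsf14 (chr17:57189474-57194181, minus strand), which encodes LIGHT, stood at 32.4, 33.0, 29.0 and 27.0 CPM in sham. In burn it stood at 44.5, 45.9, 38.1 and 37.0 CPM, and with anti-G-CSF at 18.4, 17.3, 24.0 and 22.2 CPM. The 3 groups were separate, with burn highest and anti-G-CSF lowest. Tnfsf14 rose 1.36-fold after burn (log2 fold change 0.45 ± 0.11, adjusted p = 0.00813) and was 2.02-fold lower with anti-G-CSF (log2 fold change -1.01 ± 0.11, adjusted p = 2.92e-06). Against sham it was 1.48-fold lower (log2 fold change -0.57 ± 0.11, adjusted p = 0.0103).

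HVEM, the product of Tnfrsf14 (chr4:154922210-154928077, minus strand), binds LIGHT on T cells and other cells. It stood at 42.8, 42.4, 55.5 and 53.3 CPM in sham and 36.5, 43.0, 36.1 and 40.5 in burn, which overlapped, and at 59.5, 56.8, 43.4 and 46.7 with anti-G-CSF, all above burn. With anti-G-CSF it was 1.32-fold higher than in burn (log2 fold change 0.40 ± 0.11, adjusted p = 0.0117). Without libraries 9 and 12 the adjusted p was 0.0561. The difference between burn and sham missed the threshold (log2 fold change -0.31 ± 0.11, adjusted p = 0.0599), and passed it when library 1, 2, 6, 9 or 11 was left out (adjusted p = 0.0355 to 0.0442) or when libraries were scaled by total alone (adjusted p = 0.0182). The other LIGHT receptor, Ltbr, the lymphotoxin beta receptor of myeloid and stromal cells, went the way of Tnfsf14. It rose 1.62-fold after burn (log2 fold change 0.69 ± 0.10, adjusted p = 1.48e-04) and was 1.82-fold lower with anti-G-CSF (log2 fold change -0.86 ± 0.10, adjusted p = 5.68e-06).

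In the BAFF system the ligand rose after burn and the main receptor fell. Tnfsf13b (chr8:10006633-10035999, plus strand) encodes BAFF, the survival factor of mature B cells, and is made by myeloid and stromal cells. It stood at 27.4, 28.9, 21.3 and 26.1 CPM in sham, 33.2, 34.8, 30.9 and 36.4 in burn and 12.7, 17.5, 21.8 and 18.4 with anti-G-CSF. Burn did not overlap either group, while sham library 3 lay below anti-G-CSF library 11. The rise after burn was 1.30-fold and close to the threshold (log2 fold change 0.38 ± 0.13, adjusted p = 0.0489). It was lost when any of libraries 1, 2, 3, 4, 5, 6, 8, 10 or 12 was left out (adjusted p = 0.0565 to 0.184), under upper quartile scaling (0.0515) and with scaling by total alone (0.125). With anti-G-CSF it was 1.92-fold lower than in burn (log2 fold change -0.94 ± 0.14, adjusted p = 3.82e-05), and 1.47-fold lower than in sham (log2 fold change -0.55 ± 0.14, adjusted p = 0.0198).

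Tnfrsf13c (chr15:82221744-82224336, minus strand) encodes the BAFF receptor of B cells. It stood at 34.3, 44.3, 43.5 and 44.9 CPM in sham, 15.3, 28.0, 29.6 and 18.0 in burn and 35.5, 55.4, 41.3 and 30.8 with anti-G-CSF. All burn libraries were below all others, and sham library 1 was the lowest of its group. Tnfrsf13c fell 1.84-fold after burn (log2 fold change -0.88 ± 0.22, adjusted p = 0.0127) and was 1.80-fold higher with anti-G-CSF (log2 fold change 0.85 ± 0.22, adjusted p = 0.0113). B lineage markers moved with it. The summed CPM of 13 such genes was 2001 ± 123 in sham, 955 ± 200 in burn and 1832 ± 369 with anti-G-CSF, with 13 of 13 called lower and then 13 of 13 called higher. As a share of that sum, Tnfrsf13c made 2.09% ± 0.238 in sham, 2.34% ± 0.329 in burn and 2.22% ± 0.255 with anti-G-CSF. The log2 differences of the share were 0.16 after burn (exact permutation test, p = 0.257, adjusted 0.463) and -0.08 with anti-G-CSF (exact p = 0.629, adjusted 0.657). In CPM, Tnfrsf13c in burn stood at 0.544 times its sham level and the marker sum at 0.477 times, and the plot of both beside their ratio shows this by library.

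**Figure D3:**
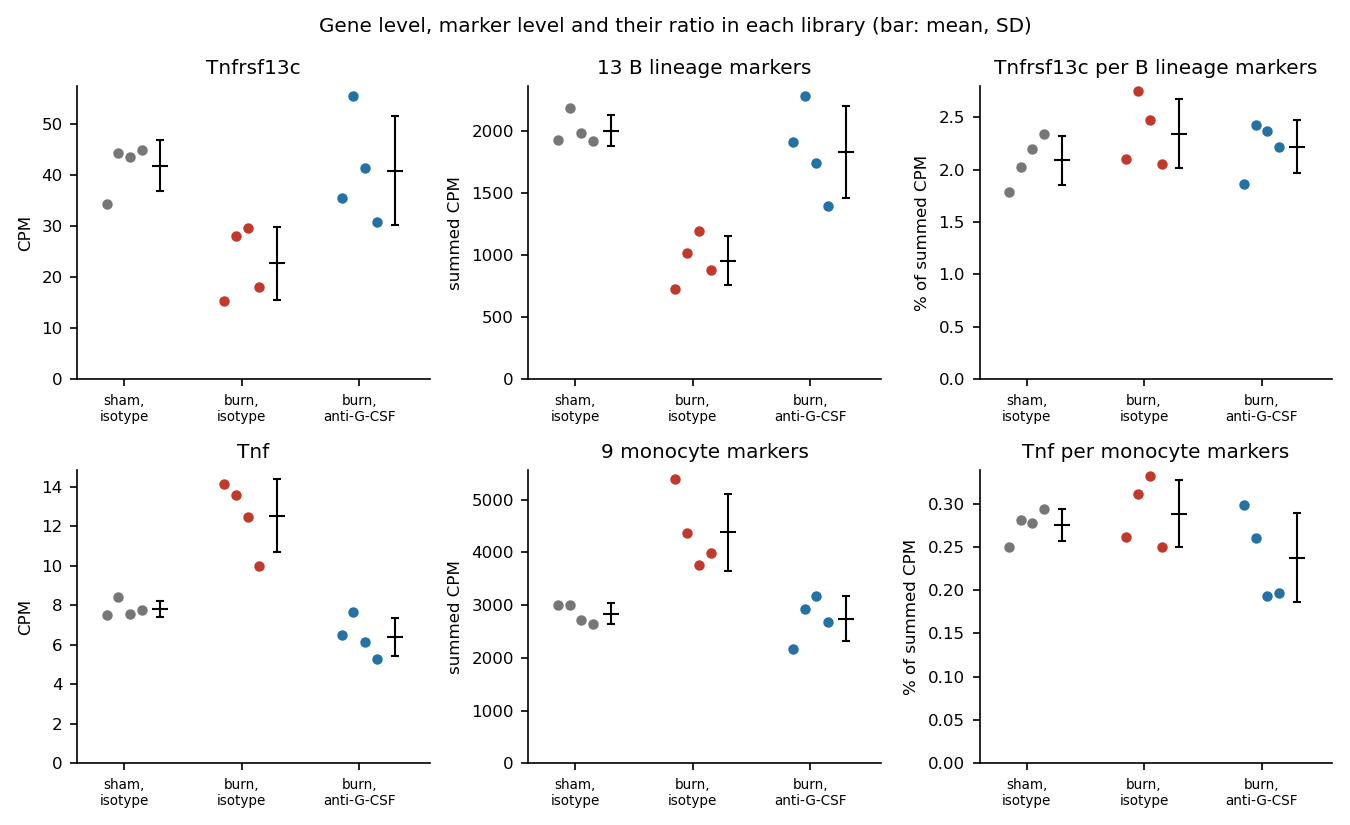
Level of Tnfrsf13c and of 13 summed B lineage markers (CPM) with their ratio, and level of Tnf and of 9 summed monocyte markers (CPM) with their ratio, by group (points: libraries, bars: mean and SD of 4). Both levels separate burn from sham for each gene and its markers, while the ratios of the groups overlap.

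The BAFF and APRIL system has 3 further members in the table. Tnfrsf13b (chr11:61140835-61147642, plus strand) encodes TACI, a receptor for both ligands on B cells, and stood at 9.35, 9.75, 12.3 and 10.8 CPM in sham. It stood at 9.43, 9.08, 8.60 and 6.91 CPM in burn and 7.84, 14.5, 9.58 and 10.1 with anti-G-CSF, and the groups overlapped. No comparison called it (log2 fold change -0.31 ± 0.18, adjusted p = 0.261 after burn, log2 fold change 0.31 ± 0.18, adjusted p = 0.201 with anti-G-CSF). Tnfsf13 (chr11:69682577-69685554, minus strand), the gene of APRIL, stood at 1.46, 0.863, 1.32 and 0.989 CPM in sham, 2.25, 1.64, 0.955 and 0.975 in burn and 1.20, 0.501, 0.485 and 0.324 with anti-G-CSF. Its groups overlapped. It was called lower with anti-G-CSF than in burn (log2 fold change -1.22 ± 0.46, adjusted p = 0.0455), and the call was lost when any of libraries 1 to 6 or 10 to 12 was left out (adjusted p = 0.0565 to 0.181). Tnfsf13 lies 685 bases from Tnfsf12 on the same strand, and how reads that span both were counted is not given in the sources used here. BCMA, the plasma cell receptor encoded by Tnfrsf17, had 32, 7, 3 and 17 counts in sham, 3, 7, 1 and 6 in burn and 14, 1, 1 and 6 with anti-G-CSF, too few for the test across genes. As a share of 5 plasma cell markers it made 0.142% ± 0.0630, 0.0834% ± 0.0570 and 0.0614% ± 0.0700, and none of the 3 exact permutation tests passed (p = 0.229, 0.457 and 0.114, adjusted 0.463 to 0.588).

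The largest log2 fold change among the members called with anti-G-CSF was that of Tnfrsf23, in a cluster of receptors on chromosome 7. Tnfrsf23 and Tnfrsf22 encode decoy receptors of mouse that bind TRAIL without signalling death, and Tnfrsf26 is their neighbour. Tnfrsf23 (chr7:143665807-143685875, minus strand) stood at 5.76, 4.77, 3.83 and 5.84 CPM in sham, 7.87, 5.54, 6.30 and 6.74 in burn and 2.70, 1.91, 3.35 and 2.26 with anti-G-CSF. All anti-G-CSF libraries were below all others. Tnfrsf23 was 2.58-fold lower than in burn (log2 fold change -1.37 ± 0.23, adjusted p = 1.46e-04) and 1.97-fold lower than in sham (log2 fold change -0.98 ± 0.23, adjusted p = 0.0166), and the difference of burn from sham missed the threshold (log2 fold change 0.39 ± 0.22, adjusted p = 0.241).

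Tnfrsf26 (chr7:143607685-143627845, minus strand) stood at 9.79, 9.24, 9.52 and 11.7 CPM in sham, 12.1, 11.7, 11.2 and 12.9 in burn and 7.79, 10.6, 9.49 and 7.16 with anti-G-CSF. Burn and anti-G-CSF did not overlap. With anti-G-CSF Tnfrsf26 was 1.37-fold lower (log2 fold change -0.45 ± 0.15, adjusted p = 0.0266). It missed the threshold without library 5, 8, 9 or 12 (adjusted p = 0.0584 to 0.0875), without libraries 9 and 12 together (0.337) and with a brain score in the model (0.339). Tnfrsf22 was lower, at 1.46, 1.68, 2.35 and 2.72 CPM in sham, 1.25, 1.28, 0.825 and 1.11 in burn and 0.949, 1.73, 1.99 and 0.647 with anti-G-CSF. Sham and burn did not overlap, but the test did not call it (log2 fold change -0.87 ± 0.38, adjusted p = 0.120). The 3 genes lie within gaps of 6962 and 16142 bases, resemble each other in sequence, and reads shared between them could have been split in counting.

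TRAIL itself, the product of Tnfsf10 (chr3:27317077-27339665, plus strand), stood at 11.2, 9.09, 11.9 and 13.4 CPM in sham, 6.75, 11.5, 8.29 and 9.35 in burn and 11.5, 11.5, 12.4 and 12.4 with anti-G-CSF. Burn libraries 6 and 8 lay within the range of sham, and library 6 also within that of anti-G-CSF. Tnfsf10 missed the threshold after burn (log2 fold change -0.34 ± 0.16, adjusted p = 0.162) and with anti-G-CSF (log2 fold change 0.42 ± 0.16, adjusted p = 0.0576). Without library 6 both passed, at log2 fold changes of -0.49 (adjusted p = 0.0421) and 0.56 (adjusted p = 0.0160). Its death receptor in mouse, Tnfrsf10b, stood at 4.90 ± 1.59, 4.81 ± 0.443 and 4.12 ± 0.900 CPM in sham, burn and burn with anti-G-CSF, with no call.

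Tnfrsf19 (chr14:60963834-61046855, minus strand), known as TROY, was the other member that fell after burn. Its level was 20.8, 21.1, 19.7 and 20.3 CPM in sham, 9.56, 7.44, 17.5 and 8.60 in burn and 29.5, 21.2, 17.0 and 23.5 with anti-G-CSF. Burn library 7 was the highest of its group and lay above anti-G-CSF library 11. Tnfrsf19 fell 1.90-fold after burn (log2 fold change -0.92 ± 0.22, adjusted p = 0.00809) and was 2.11-fold higher with anti-G-CSF (log2 fold change 1.08 ± 0.22, adjusted p = 0.00181). TROY is known from the nervous system, and brain markers summed to 1319 CPM in library 7, the highest of the burn group. They summed to 1186 CPM in burn library 8, where Tnfrsf19 stood at 8.60 CPM, and to 827 to 932 CPM in sham. The part of brain RNA in these levels was not tested. The rise of Tnfrsf19 with anti-G-CSF was kept without libraries 9 and 12 (log2 fold change 0.84, adjusted p = 0.0297). It missed the threshold with a brain score in the model (0.60, adjusted p = 0.0559). The fall after burn was called in both (-0.94 and -1.11).

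A further set of receptors known from T cell costimulation was not called in any comparison. These were Tnfrsf4 (OX40), Tnfrsf8 (CD30), Tnfrsf9 (CD137), Tnfrsf18 (GITR) and Tnfrsf25 (death receptor 3), with group means from 0.497 CPM (Tnfrsf8 in sham) to 7.18 CPM (Tnfrsf18 in sham). Tnfrsf25 came nearest to the threshold, at 1.00 ± 0.544 CPM in burn and 1.97 ± 0.549 with anti-G-CSF (log2 fold change 0.97 ± 0.37, adjusted p = 0.0527). Their tested ligands were not called either. Tnfsf8 (CD30 ligand) stood at 2.11 ± 0.914 CPM in sham and 1.02 ± 0.459 in burn (log2 fold change -1.06 ± 0.40, adjusted p = 0.0698). Tnfsf9 (CD137 ligand) stood at 2.08, 1.95, 1.39 and 2.08 CPM in burn and 1.25, 1.18, 1.06 and 1.01 with anti-G-CSF. These did not overlap, and the test missed the threshold (log2 fold change -0.73 ± 0.30, adjusted p = 0.0661). Tnfsf15, a ligand of death receptor 3, ranged from 0.490 to 0.629 CPM in group means. The OX40 ligand gene Tnfsf4, with 0 to 4 counts per library, and the GITR ligand gene Tnfsf18, with 0 to 11, were too low to test. Tnfsf18 had 11, 8, 3 and 4 counts in sham, 0, 3, 0 and 0 in burn and 5, 2, 5 and 0 with anti-G-CSF. Summed CPM of 14 T and NK cell markers was 212 ± 28.1 in sham, 141 ± 24.7 in burn and 170.0 ± 27.9 with anti-G-CSF.

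In the bone-resorption system the ligand and its soluble inhibitor were near the lower limit of detection, and the receptor was higher. Tnfsf11 encodes RANKL and stood at 0.689 ± 0.336, 0.521 ± 0.339 and 0.429 ± 0.345 CPM in sham, burn and burn with anti-G-CSF. Its receptor RANK, encoded by Tnfrsf11a, stood at 2.81 ± 0.788, 3.40 ± 0.613 and 3.24 ± 1.18 CPM, and neither gene was called. Tnfrsf11b, which encodes the soluble RANKL inhibitor osteoprotegerin, had 1 count in library 1 and 0 in the other sham and burn libraries. With anti-G-CSF it had 0, 3, 7 and 8 counts in libraries 9 to 12. Summed CPM of 6 osteoclast markers was 85.7 ± 7.05 in sham, 53.9 ± 13.7 in burn and 83.1 ± 6.04 with anti-G-CSF. Only 2 of these 6 passed the filter on low counts, with 1 called lower after burn and 1 called higher with anti-G-CSF. The TWEAK pair, Tnfsf12 and its receptor Tnfrsf12a, was not called either, at 4.24 ± 1.12 and 1.63 ± 0.426 CPM in sham.

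Compared with sham, burned marrow given anti-G-CSF had 4 members called lower (Tnfrsf1a, Tnfsf14, Tnfsf13b and Tnfrsf23) and 0 called higher. All 4 calls were absent when libraries 9 and 12 were left out and when a brain score was in the model. The score was 4.94 to 5.22 in sham and 5.62 to 6.53 with anti-G-CSF, without overlap. Score and group are therefore hard to tell apart in that model, and the loss of a call there does not show its cause. Without libraries 9 and 12 the log2 fold changes were -0.30 for Tnfrsf1a (adjusted p = 0.337), -0.56 for Tnfsf14 (0.138), -0.40 for Tnfsf13b (0.281) and -0.94 for Tnfrsf23 (0.222). In that fit 18 genes were called higher and 17 lower over the whole table, against 1083 and 598 with all libraries. With the brain score the log2 fold changes were -0.16 ± 0.14 for Tnfrsf1a (adjusted p = 0.999), -0.44 ± 0.17 for Tnfsf14 (0.877), -0.38 ± 0.19 for Tnfsf13b (0.992) and -0.93 ± 0.33 for Tnfrsf23 (0.793), and 11 genes were called higher and 2 lower over the whole table. Leaving out 1 library at a time, Tnfsf14 was called in all 12 fits (adjusted p = 0.00380 to 0.0416). Tnfrsf1a was lost without library 1, 2, 9 or 12 (0.0616 to 0.0747), Tnfsf13b without 1, 2, 4 or 9 (0.0527 to 0.0688), and Tnfrsf23 without 1 or 4 (0.0577 and 0.0523). Neutrophil markers were also lower than in sham with all libraries, 0.657 times on the summed CPM. Since 2 genes of the whole table were called lower with the score, most of the 12 neutrophil marker calls ended there too.

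Family members with other symbols were taken from a list of 14 genes, of which 10 were tested. After burn 2 were called higher, Ltbr and Relt, and 0 lower of the 10 (21.0% of all genes were called), with a median log2 fold change of -0.32. Relt, an orphan receptor, stood at 66.0, 62.4, 65.7 and 68.4 CPM in sham and 80.7, 92.3, 71.9 and 78.8 in burn (log2 fold change 0.30 ± 0.09, adjusted p = 0.0203), without overlap. With anti-G-CSF 1 was called higher and 3 lower of the 10 (34.6% of all genes were called), with a median of 0.06. Fas, the death receptor for Fas ligand, stood at 20.5, 24.1, 18.4 and 21.8 CPM in burn and 10.2, 8.57, 13.6 and 9.42 with anti-G-CSF. This was 2.02-fold lower (log2 fold change -1.02 ± 0.16, adjusted p = 6.79e-05). Fas was also below sham (log2 fold change -0.69 ± 0.16, adjusted p = 0.0152). It was the only call among the 10 in that comparison, where 1681 of 15283 genes were called in either direction. Relt was 1.43-fold lower than in burn (log2 fold change -0.52 ± 0.09, adjusted p = 2.03e-04). Cd40, the receptor through which T cells help B cells, was 1.40-fold higher (log2 fold change 0.48 ± 0.17, adjusted p = 0.0364).

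Downstream of the receptors, 29 genes for adaptors, kinases, caspases and ubiquitin enzymes were all tested. After burn 5 rose and 4 fell (31.0%, against 21.0% of all genes), with a median log2 fold change of 0.04. Scaled by total counts alone, 3 rose and 10 fell, and without library 5 the number that rose was 3. The smallest p belonged to Tab3, an adaptor of the kinase TAK1, which stood at 89.3, 89.3, 83.6 and 85.9 CPM in sham and 60.4, 60.2, 59.1 and 63.6 in burn (log2 fold change -0.52 ± 0.08, adjusted p = 1.30e-04). Traf4 also fell (log2 fold change -0.75 ± 0.15, adjusted p = 0.00148). Mlkl, the executor of necroptosis, rose 1.56-fold (log2 fold change 0.64 ± 0.14, adjusted p = 0.00257), and Cflar, the inhibitor of caspase 8, rose 1.25-fold (log2 fold change 0.32 ± 0.07, adjusted p = 0.00329). The fifth by p was Traf5, which fell (log2 fold change -0.46 ± 0.11, adjusted p = 0.00595). The burn and sham libraries did not overlap in any called gene of the list, nor in the uncalled Traf6, Traf7, Casp8 and Tab1. The share of all genes without overlap was not computed.

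With anti-G-CSF 4 genes of this list were higher than in burn and 9 lower (44.8%, against 34.6%), with a median of -0.14. Scaled by total counts alone these were 7 and 4, and with upper quartile factors 6 and 6. Tab3 was 1.52-fold higher (log2 fold change 0.61 ± 0.08, adjusted p = 8.92e-06) and Traf4 1.79-fold higher (log2 fold change 0.84 ± 0.15, adjusted p = 3.27e-04). Cflar was 1.46-fold lower (log2 fold change -0.54 ± 0.07, adjusted p = 1.76e-05). Map3k5, the stress kinase ASK1, was 1.41-fold lower (log2 fold change -0.49 ± 0.08, adjusted p = 1.66e-04), and Ripk1, the kinase recruited by TNFR1, 1.41-fold lower (log2 fold change -0.50 ± 0.09, adjusted p = 4.18e-04). Without libraries 9 and 12 the list had 5 higher and 4 lower. Against sham 1 of the 29 genes was called, where 1681 of 15283 genes were called in either direction. It was Sharpin, a subunit of the linear ubiquitin ligase (log2 fold change -0.29 ± 0.09, adjusted p = 0.0449). No gene of the list was called lower than sham in 7 of the 12 fits with 1 library left out, those without library 1, 2, 4, 5, 8, 9 or 12. The same held without libraries 9 and 12 together and with the brain score, so the Sharpin call was absent in all of these. Which gene was called in the remaining fits was not recorded.

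**Figure D4:**
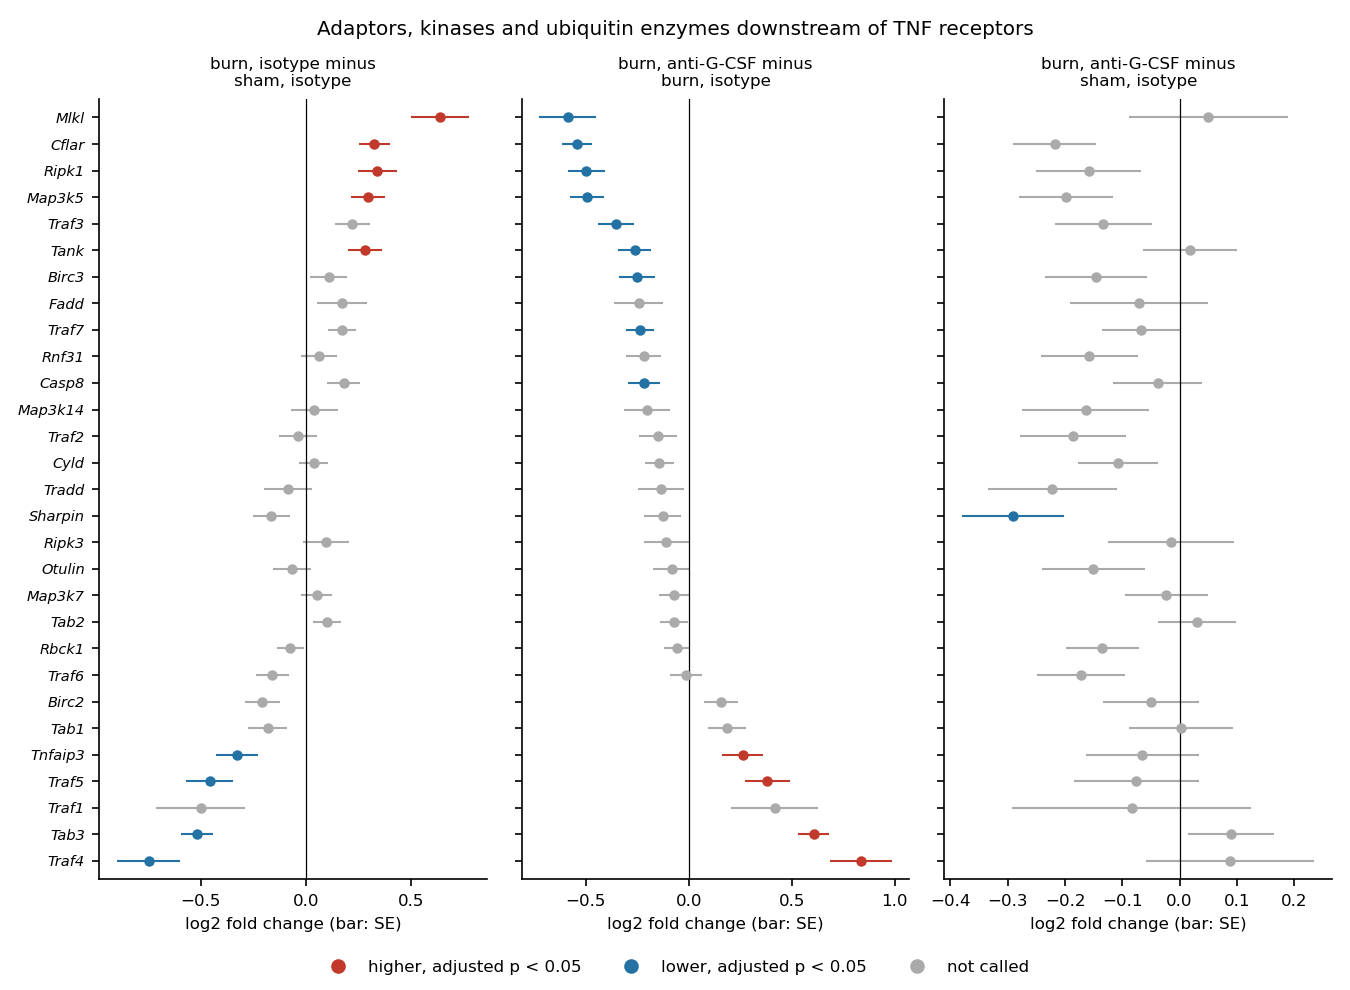
Log2 fold change (x axes, each panel with its own range, bars 1 SE) of 29 genes downstream of TNF receptors (rows) in 3 comparisons (panels), coloured by whether the adjusted p was under 0.05. After burn 5 genes were called higher and 4 lower, with anti-G-CSF 4 higher and 9 lower, and against sham 1 lower.

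Genes with a part in the release of ligands from the cell surface or their cutting in the secretory pathway were also described, 8 in all. Besides proteases they include the rhomboid homologs Rhbdf1 and Rhbdf2, and Timp3, a metalloproteinase inhibitor that was not called in any comparison. After burn 4 rose (Adam17, Furin, Rhbdf2 and Sppl2a) and 1 fell (Sppl2b), 62.5% against 21.0% of all genes, with a median log2 fold change of 0.15. Furin, the protease that processes BAFF and APRIL, stood at 96.9, 102, 114 and 111 CPM in sham, 143, 139.8, 136 and 135 in burn and 68.2, 94.7, 95.1 and 81.2 with anti-G-CSF. It rose 1.31-fold after burn (log2 fold change 0.39 ± 0.09, adjusted p = 0.00538) and was 1.63-fold lower with anti-G-CSF (log2 fold change -0.70 ± 0.09, adjusted p = 1.44e-05). Rhbdf2, which carries the TNF-cleaving protease ADAM17 to the surface, rose 1.29-fold (log2 fold change 0.37 ± 0.10, adjusted p = 0.0117) and was 1.59-fold lower with anti-G-CSF (log2 fold change -0.67 ± 0.10, adjusted p = 5.18e-05). Sppl2b, an intramembrane protease that cuts the TNF stub, went the other way, falling after burn (log2 fold change -0.56 ± 0.11, adjusted p = 0.00198) and standing higher with anti-G-CSF (log2 fold change 0.59 ± 0.11, adjusted p = 7.09e-04). Adam10 and Sppl2b were the 2 called higher with anti-G-CSF, and Adam17, Furin, Rhbdf2 and Sppl2a the 4 called lower (75.0%, against 34.6%, median -0.03). Against sham 1 of the 8 was called, where 1681 of 15283 genes were called in either direction, and the median was 0.01. The called gene was Furin, which was 1.25-fold lower without overlap (log2 fold change -0.32 ± 0.09, adjusted p = 0.0355). The lists were chosen with results of these data known, so their counts are descriptions.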

How the data were processed

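Gene counts of 12 libraries were taken from 1 table, 4 libraries in each of 3 groups as the labels name them. The authors deposited raw counts, whole numbers with no scaling. The submitters' processing notes name TopHat2, a spliced aligner, and build mm10, and per the labels' protocols the libraries were polyadenylated-selected and strand-specific. Counter, strand setting and annotation: not given in the sources used here, which makes near-identical or closely adjacent genes uncertain. Pairs of libraries within a group differed by 5.81 to 31.9 chi-square units per degree of freedom over 18 pairs, so none was counted as a copy.

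Genes were filtered with filterByExpr by group, scaled with TMM factors and fitted with edgeR 4.0.16 (R 4.3.3) by robust quasi-likelihood over all 12 libraries with 1 mean per group, leaving 9 residual degrees of freedom. Tests were 2-sided, with Benjamini-Hochberg adjustment over 15283 genes at 0.05, and the pipeline was tested on simulated data. The SE was computed as |log2 fold change| divided by sqrt(F). Marker ratios were compared on the log2 scale with exact permutation tests over 70 assignments, adjusted over 9 tests. The brain score, a term added to 1 alternative model, is the mean log2 of CPM plus 0.5 over the brain markers. Exon lengths are unions from GENCODE vM21, and upstream windows and motif searches used RefSeq GRCm38.p6. Alternatives were DESeq2 1.42.0, limma-voom 3.58.1, other scalings and filters, and libraries left out.

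Named members are Tnf, its receptors, the members with the smallest adjusted p among those called, and their partners. Up to 5 genes are named from the downstream and other-symbol lists and up to 3 from the shedding list. Tnfrsf22, Tnfrsf25, Tnfsf8 and Tnfsf9 were singled out after their values were seen. The members and lists were chosen with earlier results of these data known.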

Additional observations from a re-analysis of the deposited data

Results flagged for a closer look

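A single library stood far from the rest of its group, by Dixon's criterion for 4 values, in 3 of the 84 sets formed by 28 members and 3 groups. Chance alone would give about 4.2, since it marks about 1 in 20 sets. Tnfsf12, the gene of TWEAK, stood at 2.865 CPM in burn library 7 and at 4.413 to 4.565 CPM in the other burn libraries. Tnfsf8, the gene of CD30 ligand, stood at 1.809 CPM in anti-G-CSF library 11 and at 1.139 to 1.213 CPM in the others of that group. Tnfrsf13c, the BAFF receptor gene, stood at 34.33 CPM in sham library 1, below the 43.52 to 44.85 CPM of the other sham libraries. Without that library its change after burn was still called, as in all 12 fits with 1 library left out (adjusted p = 0.00417 to 0.0380 for Tnfrsf13c).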

How the results depend on the processing

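No paired analysis was possible because no replicate number is shared between groups. Of the single-gene values recomputed under alternatives for the 14 members given by library, 833 kept direction and side of the threshold, 55 lost a call, 15 gained one and 21 changed sign, all 21 uncalled. The causes of the changes below were not tested. Scaled by library size alone, 4 members were lower after burn (2 in the fit reported), the downstream list had 3 higher and 10 lower (5 and 4), and 2846 of all genes were lower (1516). In that scaling anti-G-CSF against burn gave 6 members higher (3), 7 and 4 of the downstream list higher and lower (4 and 9), and 5762 and 1673 of all genes (2703 and 2582), and against sham 0 of the downstream list (1) and 376 of all genes lower (598). Upper quartile factors gave 5 members higher with anti-G-CSF than in burn and 0 of the downstream list lower than in sham. With limma-voom these were 5 and 0, and 713 of all genes were above sham (1083). DESeq2 size factors and the DESeq2 Wald test each gave 2 of the downstream list below sham, and the Wald test 1007 of all genes. Fits of the compared pair of groups gave 2 of the downstream list and 1602 of all genes above burn, and 0 of the list below sham.

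Without replicates 9 and 12, 4 members were lower after burn. The downstream list had 4 lower and all genes 1280 higher with anti-G-CSF than in burn. Against sham 0 members and 0 of the list were lower, and all genes had 18 higher and 17 lower. With the brain score as covariate, 4 of the list were lower and all genes had 1297 higher and 1532 lower than in burn. Against sham 0 members and 0 of the list were lower, and all genes had 11 higher and 2 lower. Both alternatives were in the plan, and the first uses fewer libraries. In the second, every anti-G-CSF library scored above every sham library, so score and group are hard to tell apart.

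Changes of sign were seen in the comparison of anti-G-CSF with sham. Tnfrsf19 went from 0.15 to -0.0988 without replicates 9 and 12 and -0.510 with the brain score. Tnfrsf13c (-0.03) went to 0.0174 and 0.0442 by upper quartile and library size, and to 0.212 and 0.249 in those same fits. Tnfrsf13b (-0.01) went to 0.0442, 0.0727, 0.191 and 0.225 likewise, and Tnfrsf26 (-0.20) to 0.0407 with the brain score. With 1 library left out, Tnfrsf13b ranged from -0.198 to 0.113, Tnfrsf13c from -0.214 to 0.0803, Tnfrsf1b from -0.0664 to 0.142 and Tnfsf10 from -0.0171 to 0.159.

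With 1 library left out, members lower after burn numbered 2 to 5 and downstream genes higher 3 to 5. All genes above burn with anti-G-CSF numbered 1639 to 3045, the fewest without library 5. Against sham, members lower numbered 1 to 4 (1 without library 1, and 2 without 2, 4 or 9), downstream genes lower 0 to 2, all genes higher 148 to 1414 and lower 177 to 857.

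Counts limit the lowest members. Tnfrsf11b, Tnfrsf17, Tnfsf4 and Tnfsf18 were too low to test, and members under about 1 CPM had SE values of 0.44 to 0.72 on the log2 scale. Against sham the following were not called (Tnfrsf9 -0.92 ± 0.47, adjusted p = 0.233, and Tnfsf13 -0.90 ± 0.46, adjusted p = 0.234).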
